A study of Homo sapiens with 6 samples.

Results

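The histone gene cluster described here is the set of crosslinked positions on both strands of 2 stretches of human chromosome 6 in the hg19 build, from 26017000 to 26285000 (first segment) and from 27775000 to 27862000 (second segment), counted from 1. Plus-strand positions from 26087509 to 26095469, the interval of HFE, the haemochromatosis gene that stands between histone genes, were left out. The members were chosen by coordinates alone, and 2127 distinct positions carried at least 1 crosslink event in any library, out of 7814183 in the whole series. The 6 iCLIP libraries came from BEAS2B, an established line of transformed human bronchial epithelial cells, irradiated with ultraviolet light so that proteins became fixed to the RNA they touch. In 3 of them RNA was pulled down with a laboratory-made antibody to QKI-5, a nuclear isoform of Quaking that binds RNA, and the 3 controls were made with no antibody. The protocol names a strong and a weak dilution of RNase, and the labels do not say which library received which, nor whether replicates were separate cultures, so the p-values given below speak only of variation from library to library, part or all of it possibly technical.

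Most genes of this cluster encode the replication-dependent histones, the proteins around which DNA is wound. H2A, H2B, H3 and H4 form the nucleosome core, and H1, the linker histone, binds the DNA between cores. These genes are short and lack introns, are transcribed mainly while DNA is copied, and their mRNAs usually end in a stem-loop in place of a poly(A) tail. The stem-loop binding protein SLBP and the U7 small nuclear RNA take part in forming that end. QKI-5 is best known as a regulator of splicing through recognition elements in introns, which most of these genes do not have.

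The RefSeq gene table used here is built on GRCh38, so it served for names and gene order only. It lists 55 protein-coding genes of the replication-dependent type on chromosome 6, of which 6 are H1, 12 H2A, 15 H2B, 10 H3 and 12 H4 genes, some of them outside the 2 segments. In that order the nearest histone genes on either side of HFE are H1-2 and H4C3. No hg19 sequence or annotation was used, so positions were not given to single genes and no sequence is printed, and the epithelial identity of the cells was not checked by marker genes. Genes of one histone class have near-identical copies, and the treatment of reads that align to more than 1 of them is not known here, so events at one copy may stem from another.

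The libraries held 7283982, 2143279 and 2889146 events for QKI-5 replicates 1, 2 and 3, and 137926, 41475 and 29810 events for control replicates 1, 2 and 3. One event is therefore worth 0.137 to 0.467 EPM (events per 1000000 in that library) in QKI-5 libraries and 7.25 to 33.5 EPM in controls, so every control value of a single block or window is coarse.

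The first comparison asked what part of the crosslinked RNA came from the histone cluster with the antibody and without it. The cluster did not take a larger part of the events in QKI-5 libraries than in controls. QKI-5 replicates 1, 2 and 3 held 1563, 581 and 848 events there, against 45, 15 and 9 events in control replicates 1, 2 and 3. Scaled to the library these were 215, 271 and 294 EPM with the antibody and 326, 362 and 302 EPM without it. Every QKI-5 library lay below every control, though QKI-5 replicate 3 and control replicate 3 were close. The mean was 259.7 ± 40.7 EPM with the antibody and 329.9 ± 30.05 EPM without it (SD, n = 3 each), a difference of -0.35 in mean log2 EPM (two-sided exact permutation p = 0.1, the smallest that 3 libraries against 3 can give).

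Counting error alone is wide for the controls. The 95% exact Poisson interval of control replicate 3 ran from 138 to 573 EPM and that of control replicate 1 from 238 to 437 EPM, against 204 to 225 EPM in QKI-5 replicate 1 and 274 to 314 EPM in QKI-5 replicate 3. Pooled over libraries the cluster held 243 EPM with the antibody and 329.8 EPM without, a ratio of 0.737 (95% exact interval 0.580 to 0.949). Such intervals cover counting error only, not the spread between libraries, and PCR copies may be among the events. In distinct positions, each counted once, the cluster took 244, 318 and 328 per 1000000 positions of the QKI-5 libraries and 397, 505 and 272 of the controls. The groups overlapped on that scale (two-sided exact permutation p = 0.3).

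**Figure D1:**
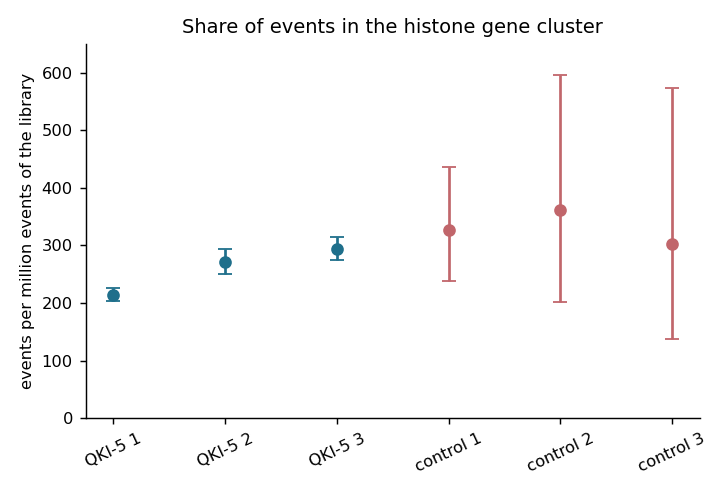
EPM in the histone gene cluster (vertical axis) for each of the 6 libraries (horizontal axis), with 95% exact Poisson intervals as bars. The QKI-5 libraries sit at 215 to 294 EPM and the controls at 302 to 362 EPM, with control intervals that reach down over the QKI-5 points.

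The cluster was crosslinked more densely than the stretch between its segments in both groups. Its density per kb of strand was 0.306, 0.386 and 0.418 EPM with the antibody (replicates 1, 2 and 3) and 0.465, 0.515 and 0.430 EPM without it. The stretch between the 2 segments held 0.103, 0.0874 and 0.110 EPM per kb in the same QKI-5 libraries and 0.0827, 0.0728 and 0.101 EPM per kb in the controls. In all 6 libraries the cluster value was the higher one. The stretch between may hold some of the histone genes outside the 2 segments, so it does not give a level for sequence without them. The difference in density between groups was not tested.

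Both strands and both segments carried events. On the plus strand of the first segment, QKI-5 replicates 1, 2 and 3 held 66.4, 87.7 and 117 EPM and controls 1, 2 and 3 held 109, 72.3 and 67.1 EPM. The minus strand of that segment held 96.1, 113 and 108 EPM with the antibody and 152, 241 and 101 EPM without it. On the plus strand of the second segment QKI-5 libraries were close together at 21.3, 21.5 and 20.4 EPM and controls held 43.5, 0 and 33.5 EPM, where replicate 2 had no event and its limit of 3 events is 72.3 EPM. Its minus strand held 30.8, 48.99 and 48.8 EPM with the antibody and 21.8, 48.2 and 101 EPM without it. Pooled over libraries, the ratios of QKI-5 to control were 0.857 (95% exact interval 0.552 to 1.41) and 0.626 (0.446 to 0.908) on the plus and minus strand of the first segment, and 0.631 (0.302 to 1.58) and 0.998 (0.502 to 2.33) on those of the second. These intervals too leave out the spread between libraries. Between single libraries the groups overlapped in all 4 sums. On the plus strand of the second segment the value of control replicate 3 was 1 event. A single event in control replicate 2 (24.1 EPM) or 3 (33.5 EPM) exceeds all QKI-5 values there, so the height of such control values is not informative.

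Tested together with all 10 kb strand-specific windows of the genome (edgeR quasi-likelihood test on event counts, TMM scaling), none of the 4 sums was called at an adjusted p (Benjamini-Hochberg) under 0.05, and 0 had an unadjusted p under 0.05. In that fit 0.754% of 29954 rows were called higher and 0.107% lower in QKI-5 libraries, and 18.4% had an unadjusted p under 0.05. The log2 fold changes, QKI-5 over control, were 0.53 (SE 0.53, adjusted p = 0.628) and -0.02 (SE 0.48, adjusted p = 0.990) on the plus and minus strand of the first segment. They were -0.09 (SE 0.72, adjusted p = 0.965) and 0.70 (SE 0.67, adjusted p = 0.608) on the plus and minus strand of the second. The median of all rows was 0.78, so the 4 sums lay below it. With library totals in place of TMM that median was 0.22 and the sums were -0.051, -0.64, -0.64 and 0.09, again below it, with the sign of the first turned round. The minus strand of the second segment lay above the median in some other fits. These were distinct positions (0.68 against 0.59) and the fits without control replicate 2 (0.93 against 0.92) or 3 (1.27 against 0.93). Among tested 10 kb windows with a control event the median in the main fit was 0.68, under the 0.70 of that strand. DESeq2's Wald test called none of the 4 and gave 1 of them no adjusted p.

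The split between strands and segments did not differ beyond the spread of the controls. The plus strand held 40.9, 40.3 and 46.7% of cluster events in QKI-5 replicates 1, 2 and 3, and 46.7, 20 and 33.3% in control replicates 1, 2 and 3. The means were 42.6 ± 3.55% and 33.3 ± 13.3% (SD, n = 3 each, two-sided exact permutation p = 0.3). The difference of 9.29 percentage points was 2.62 without control replicate 2 and 15.95 without control replicate 1, where the groups no longer overlapped (two-sided exact permutation p = 0.2, with 3 libraries against 2). The second segment held 24.2, 26.0 and 23.6% of cluster events with the antibody and 20, 13.3 and 44.4% without it. Its means were 24.6 ± 1.24% and 25.9 ± 16.4% (SD, n = 3 each, two-sided exact permutation p = 1).

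Within the segments the events were gathered into short stretches on one strand with long empty spans between them. Of 714 strand-specific 1 kb bins that touch the segments, 7 lay wholly in the HFE interval, 235 held any event, and 76 held events in all 3 QKI-5 libraries. The 10 bins with the highest mean EPM in QKI-5 libraries held 29.3% of all QKI-5 events of the cluster. The longest spans with no event on either strand in any library, leaving aside any that reach the HFE interval, were 9454 nt from 26138123 to 26147576 and 9828 nt from 27822531 to 27832358. A longer empty span reached the HFE interval, since no 1 kb bin from after 26058000 up to 26087509 held an event on either strand. Over the 235 bins, log2 (EPM + 1) of the QKI-5 libraries correlated at Pearson r of 0.862 for replicates 1 and 2, 0.820 for 1 and 3 and 0.750 for 2 and 3. The Spearman values were 0.667, 0.630 and 0.604. These describe bins that share library depth and neighbourhood and carry no test.

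**Figure D2:**
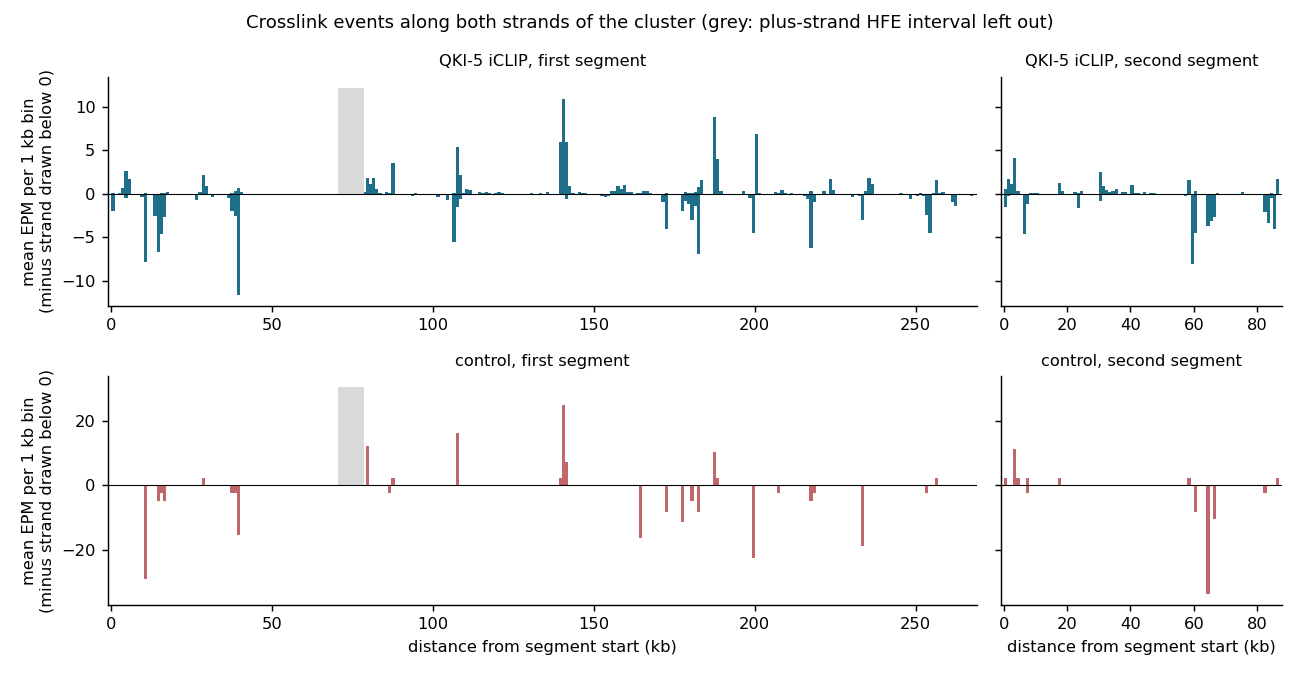
Mean EPM in each 1 kb bin (vertical axis, plus strand above and minus strand below the line) against distance from the segment start in kb, for QKI-5 libraries in the upper panels and controls in the lower panels, whose vertical scales differ. In QKI-5 libraries the events stand in narrow peaks, the tallest a minus-strand bin of 11.7 EPM, and control bins stand mostly at the same places.

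Single bins followed the same pattern. The minus-strand bin 26056001 to 26057000 was the highest, with 81, 29 and 30 events in QKI-5 replicates 1, 2 and 3 and 3, 1 and 0 events in control replicates 1, 2 and 3. The plus-strand bin 26157001 to 26158000 followed with 35, 17 and 58 events, against 1, 0 and 2 in controls. Next came the plus-strand bin from 26204001 (8.89 EPM on average in QKI-5 libraries) and the minus-strand bins from 27834001 (8.08 EPM), 26027001 (7.90 EPM) and 26199001 (6.88 EPM). The plus-strand bins from 26217001 (6.85 EPM) and 26156001 (5.97 EPM) and the minus-strand bins from 26031001 (6.71 EPM) and 26234001 (6.29 EPM) made up the rest of the first 10. Those from 27834001 and 26217001 had no control event. Ranked by the controls, the first 5 bins were those from 27839001, 26027001, 26216001 and 26250001 on the minus strand and 26157001 on the plus strand, with 3, 5, 2, 3 and 3 control events in all. In 2 of these 5, those from 27839001 and 26216001, all control events came from control replicate 3, the shallowest library.

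Joining positions of one strand less than 100 nt apart, over all 6 libraries, gave 389 blocks. Of these, 218 were single positions, and 43 held 10 or more positions. The blocks were made from the values they describe and get no test. The 43 blocks covered 2.74% of the strand length of the cluster and held 71.0, 78.8 and 64.5% of its events in QKI-5 replicates 1, 2 and 3, against 64.4, 80.0 and 88.9% in control replicates 1, 2 and 3. Their median width was 435 nt (interquartile range 255 to 550), 18 lay on the plus and 25 on the minus strand, and 30 lay in the first segment and 13 in the second. All 43 had events in each QKI-5 library, while 19 had none in any control and none had more than 5. Each held 11 to 176 QKI-5 events in all, with a median of 39. Library depth moves with these counts, and its part in them was not tested.

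The widest and strongest block ran from 26156571 to 26157834 on the plus strand with 8.92, 13.1 and 28.7 EPM for QKI-5 replicates 1, 2 and 3, against 14.5, 0 and 67.1 EPM for the controls in the same order. QKI-5 replicate 3 was high there, with 83 events against 65 in the deeper replicate 1, and the 4 control events were split evenly between control replicates 1 and 3. The minus-strand block from 27834512 to 27835352 held 7.55, 18.2 and 11.8 EPM with the antibody, against 0, 24.1 and 0 EPM, a single event, without it. The minus-strand block from 26055796 to 26056700 was the most even of the 10 strongest, at 12.2, 13.5 and 11.4 EPM with the antibody, against 21.8, 24.1 and 0 EPM without it. Both blocks lay with their control values on either side of the QKI-5 values. In the plus-strand block from 26204836 to 26205299, which was 464 nt wide, the values were 7.83, 15.4 and 12.8 EPM with the antibody and 14.5, 24.1 and 0 EPM without it. It had the highest density of the 10 strongest, 2.59 EPM per 100 nt averaged over QKI-5 libraries.

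The minus-strand block from 26031352 to 26032327 held 69, 28 and 27 events in QKI-5 replicates 1, 2 and 3 and 2, 0 and 0 in control replicates 1, 2 and 3. Next to it in rank, the minus-strand block from 26027032 to 26027510 had the most control events of the 10, with 2, 3 and 0, against 55, 22 and 17 in QKI-5 libraries. The minus-strand block from 26198879 to 26199518 had 61, 19 and 15 events with the antibody and 1 control event. The plus-strand block from 26217156 to 26217697 was the only one of the 10 with no control event. It held 24, 22 and 19 QKI-5 events, so that the mean over QKI-5 libraries was 6.71 ± 3.49 EPM (SD, n = 3), under the limit of 3 events in each control (21.8 to 101 EPM). The plus-strand blocks from 26124399 to 26125129 and from 26158252 to 26158799 held 6.27 and 5.18 EPM on average with the antibody, and their 2 and 3 control events came from control replicate 2 and control replicate 1.

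**Figure D3:**
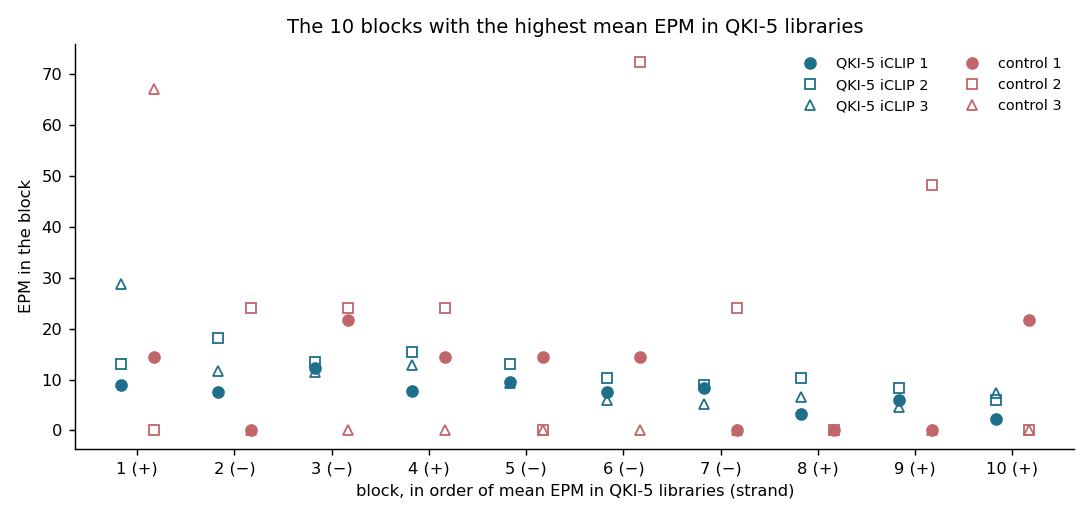
EPM (vertical axis) of the 10 strongest blocks in each library, ordered by mean EPM in QKI-5 libraries with the strand in brackets (horizontal axis). The QKI-5 points lie between 2.20 and 28.7 EPM, while control points stand either at 0 or at 14.5 EPM and above. A control event is worth 7.25 EPM or more.

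Events in the blocks were confined almost wholly to one strand. Over the 43 blocks, QKI-5 libraries held 2114 events on the strand of the block and 17 on the opposite strand within the same coordinates, 0.798% of the sum, and 38 blocks had none opposite. The block from 26055796 had 9 of the 17. No control event lay opposite a block, but the blocks held only 49 control events, too few to show so small a share. Among 48 of the 1 kb stretches with 20 or more QKI-5 events over both strands, 41 had at least 90% of them on one strand.

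Neighbouring blocks less than 1000 nt apart formed 15 pairs, of which 10 were on the same strand, 4 were divergent (minus strand on the left, plus strand on the right) and 1 was convergent. H2A and H2B genes are often arranged as divergent pairs around a shared promoter, though these blocks were not given to genes. The divergent pair of blocks from 26216292 to 26216915 and from 26217156 to 26217697 was separated by 240 nt, with 50 and 65 QKI-5 events and 2 and 0 control events. The divergent pair from 26123933 to 26124151 and from 26124399 to 26125129 was separated by 247 nt, with 21 and 74 QKI-5 events. In the pair of blocks ranked 7 and 41, from 26198879 and from 26200089, the left block had 95 QKI-5 events and the right one 16. The last of the 4, from 27860748 to 27860965 and from 27861201 to 27861552, lay 235 nt apart and held 22 and 15 QKI-5 events. As joined here, partners were closest in count in the pairs at 26216292 and 27860748 and farther apart in the others. That order depends on the joining distance. A minus-strand block with 56 QKI-5 events lay 172 nt from the block at 26123933. Another, with 25 QKI-5 events, lay 116 nt from the block at 27860748. Neither was counted in the divergent pairs.

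Along the 43 blocks, read 5′ to 3′ on their own strand, and cut into 3 equal parts, the 5′ part held more events than the 3′ part. In QKI-5 replicates 1, 2 and 3 the 5′ part held 41.5, 45.6 and 39.1% of block events, the middle part 31.9, 31.2 and 31.6% and the 3′ part 26.6, 23.1 and 29.3%. In control replicates 1, 2 and 3 the 5′ part held 15, 8 and 0 events, the middle part 9, 3 and 4 and the 3′ part 5, 1 and 4. Control replicates 1 and 2 were ordered like the QKI-5 libraries and control replicate 3 was not. In 20 of the 43 blocks the 5′ part held the most QKI-5 events, in 12 the middle part and in 11 the 3′ part. A block starts and ends at a crosslinked position by construction, which raises both ends alike. Blocks are not transcripts, so the 3 parts do not name coding sequence or UTR.

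**Figure D4:**
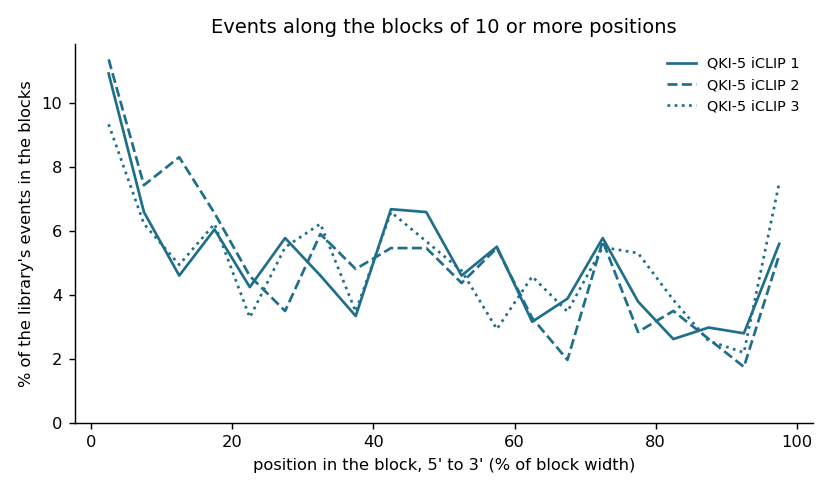
Share of each QKI-5 library's events in the 43 blocks (vertical axis, %) in 20 equal slices from the 5′ to the 3′ end (horizontal axis, % of block width). All 3 lines are highest in the first slice and fall unevenly toward the 3′ side, with a smaller rise in the last slice, and the 5′ of 3 equal parts holds 39.1 to 45.6% of events.

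Single positions were rarely shared. Of 2079 positions with an event in a QKI-5 library, 13 (0.625%) were found in all 3, 108 (5.19%) in exactly 2 and 1958 (94.2%) in 1. Of the 13, 10 lay in the 43 blocks. The minus-strand position 26194927 led with 6 events in each QKI-5 library and 1 in control replicate 3. It was followed by the minus-strand position 26123741 with 1, 7 and 1 events, the plus-strand position 26204843 with 3, 3 and 4 events and the minus-strand position 26199485 with 3, 4 and 1 events in QKI-5 replicates 1, 2 and 3. The minus-strand position 26123734 held 5, 4 and 0. None of these 4 had a control event. Position 26194927 was thus the only one of the first 5 with an equal number of events in all 3 QKI-5 libraries.

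The controls were crosslinked at 60 positions of the cluster, none of them in more than 1 control library. QKI-5 libraries had an event at 12 (20%) of these 60, against 17.6% of the 147602 control positions in the whole series. Of the 69 control events, 49 (71.0%) lay in the 43 blocks, which were made from control positions too. Control events in the cluster were therefore mostly in the stretches that QKI-5 libraries also marked, seldom at the same nucleotide.

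Events repeated at one nucleotide were no more common in the cluster than elsewhere in QKI-5 libraries. A crosslinked position of the cluster held 1.22, 1.47 and 1.56 events on average in QKI-5 replicates 1, 2 and 3, against 1.39, 1.72 and 1.75 in the rest of the same libraries. In control replicates 1, 2 and 3 it held 1.07, 1.15 and 1.80 events, against 1.30, 1.61 and 1.62 elsewhere. The cluster value was the lower one in 5 of the 6 libraries, and control replicate 3, with 5 positions, was the exception. Between groups the means were 1.42 ± 0.175 and 1.34 ± 0.399 events per position (SD, n = 3 each, two-sided exact permutation p = 0.8). No member position held more than 7 events in any library.

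The second comparison asked which 10 kb windows of the cluster took a different part of the events with the antibody. None was called. Of 65 member windows with any event, 38 had no control event, and 8 passed the filter on low counts in edgeR. Of these 8, 0 were higher and 0 lower at an adjusted p under 0.05, and 0 had an unadjusted p under 0.05, the smallest adjusted p being 0.599. Over all 29958 windows tested, 0.754% were called higher, 0.107% lower, and 18.4% had an unadjusted p under 0.05. DESeq2's Wald test called none of the 8 and gave 7 of them no adjusted p. The log2 fold changes of the 8 ran from -0.92 to 0.57 and rest on 2 to 7 control events each. A window can pass the filter through its control libraries. The windows from 26020001 on the minus strand and 26120001 on the plus strand needed their control values to pass. The median of all windows that passed was 0.78, above all 8. With no filter it was 1.66, and the 8 ran from -0.41 to 1.06, again below it. Of all 65 member windows 36 lay above it, though fold changes of the 38 without a control event depend on the prior count. Without the filter 0 of the 65 were called and 2 had an unadjusted p under 0.05, against 9.54% of 174739 windows.

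**Figure D5:**
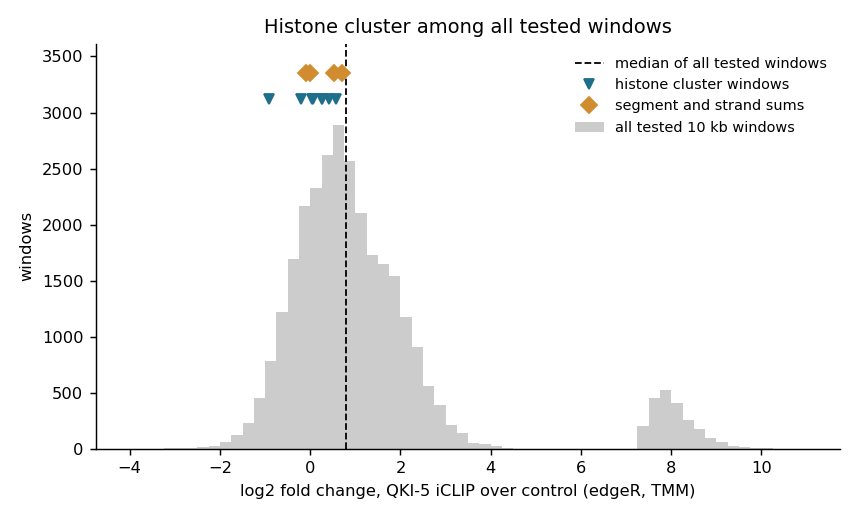
Number of tested 10 kb windows (vertical axis) by log2 fold change, QKI-5 over control (horizontal axis), with the 8 tested windows of the histone cluster as triangles, the 4 segment and strand sums as diamonds and the median of all windows as a dashed line. The triangles lie between -0.92 and 0.57 and the diamonds reach 0.70, for windows that passed the filter on low counts, and the separate hump beyond 7 holds windows with no control event.

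The strongest window, plus strand 26150001 to 26160000, showed 12.4, 20.5 and 39.5 EPM for QKI-5 replicates 1, 2 and 3, against 36.3, 0 and 67.1 EPM for the controls in the same order. The groups overlapped, and edgeR gave 0.05 on the log2 scale (SE 0.72, adjusted p = 0.979), or -0.51 with library totals. The minus-strand window from 26050001 held 15.4, 15.9 and 19.04 EPM with the antibody and 36.3, 24.1 and 0 EPM without, a log2 fold change of -0.20 (SE 0.77). The minus-strand window from 26030001 held 14.6, 16.3 and 19.04 EPM in QKI-5 libraries, and its 5 control events all came from control replicate 1. The minus-strand window from 27830001 held 10.8, 23.3 and 15.6 EPM with the antibody and 0, 24.1 and 101 EPM without it. The minus-strand window from 26190001 was the one with events in every control, at 17.2, 15.9 and 13.2 EPM with the antibody and 14.5, 24.1 and 33.5 EPM without it.

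The plus-strand window from 26200001 had the highest log2 fold change of the 8, 0.57 (SE 0.97), with 73, 35 and 53 events in QKI-5 replicates 1, 2 and 3 and 2, 1 and 0 in controls 1, 2 and 3. The minus-strand window from 26020001 had the lowest, -0.92 (SE 0.86, adjusted p = 0.599 by edgeR), with 60, 24 and 20 against 2, 3 and 0 events. It needed its control values (14.5, 72.3 and 0 EPM) to pass the filter, and the same values enter its fold change. With no filter its log2 fold change was -0.41. In the plus-strand window from 26120001 the mean was 8.77 ± 1.5 EPM in QKI-5 libraries, and its 2 control events came from control replicate 2, without which it would not have passed. Both remaining windows of the strongest 10 did not pass the filter. The minus-strand window from 26270001 held 9.20 ± 1.90 EPM (SD, n = 3) with 1 control event, and the minus-strand window from 26120001 held 8.24, 8.86 and 8.31 EPM, the most even of the 10, with no control event. Of the 65 member windows, 6 exceeded 14.8 EPM, the 90th percentile over all windows with any event, and the highest stood at the 95.4th percentile.

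The edge of the HFE interval bears on these values. In the 5 kb downstream of it on the plus strand, members held 30, 11 and 21 events in QKI-5 replicates 1, 2 and 3 and 5, 0 and 0 in control replicates 1, 2 and 3. Without them the mean log2 EPM still differed by -0.33 between the groups, and every QKI-5 library still lay below every control (two-sided exact permutation p = 0.1). These positions lie from 26095854 to 26099736, and whether they belong to HFE transcripts was not tested. No event lay opposite the HFE interval on the minus strand.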

How the data were processed

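Crosslink positions from 6 iCLIP libraries of BEAS2B cells were used. The build is hg19 and the tools named are cutadapt and Bowtie, per the submitters' processing notes, which name no versions. The deposited values are raw whole-number counts of crosslink events per position and strand, 1 library per file. Whether the authors merged PCR copies is not known here.

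Members were selected by coordinates. The members, lists and tests were chosen with earlier results of these data known. Events were summed over segments, strand-specific 10 kb windows, 1 kb bins and blocks (positions less than 100 nt apart), and given as EPM. Shares were compared by exact permutation over libraries. Windows were tested with edgeR 4.0.16 (R 4.3.3, limma 3.58.1), using filterByExpr, TMM and the group as the only term, over the whole genome with Benjamini-Hochberg adjustment at 0.05. The event counts of a window straddling the edge of the members were split. A log2 fold change is QKI-5 over control at edgeR's default prior count, and its SE was taken from the quasi-likelihood F value. DESeq2 1.42.0 was an alternative. Floors are 3 events per library. Python 3.11.15, numpy 2.4.6, pandas 2.3.3, scipy 1.17.1 and matplotlib 3.10.9 were used.

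Named items were the 10 windows, 10 bins, 10 blocks and 5 positions with the highest mean EPM in QKI-5 libraries, any called window, and the 5 bins with the highest mean EPM in controls. Block pairs, parts of blocks and the values past HFE were added after the data were seen. The planned gene-level test and cell type markers need an hg19 annotation and were not run.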

Additional observations from a re-analysis of the deposited data

How the results depend on the processing

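The lower share of events in the cluster kept its direction under each alternative run, with differences in mean log2 EPM from -0.45 to -0.22 with 1 library left out and -0.53 when the 20 windows with the largest control share were taken from the library totals, an alternative chosen after seeing the data, as was leaving out positions past HFE. The count of called member windows stayed at 0 in both directions in each fit that tested any. Without a QKI-5 replicate no member window passed the filter, and the second-segment sums had no value. Of the 4 sums, the minus strand of the second segment was positive in each fit that gave a value, at 0.09 with library totals to 1.27 without control replicate 3, and the other 3 changed sign. The plus strand of the first segment gave -0.051 with library totals and -0.41 to 1.88 with 1 library left out. The minus strand of the first segment gave 0.47 with no filter on low counts and -0.80 to 0.74 with 1 library left out, and the plus strand of the second gave 0.41 and -0.27 to 2.10 in the same fits. The highest of each of these ranges came without control replicate 1, where the median of all rows was 6.69. Differences in events per position ranged from -0.0568 to 0.307 and those in the second-segment share from -7.61 to 7.94 percentage points with 1 library left out, the last without control replicate 3.

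Whether the replicate numbers pair the libraries was not settled by correlations between them, which rest on few control events per window. Deviations of same-numbered libraries correlated at -0.003, 0.102 and 0.0749 over 29958 windows. Those of differently numbered libraries correlated at -0.106 to 0.0584. With the replicate block, edgeR called no window of the genome and no member, with 2195 windows and 0 members at an unadjusted p under 0.05, and the minus strand of the first segment and the plus strand of the second gave 0.15 and 0.23.

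Named windows changed sign as follows. On the plus strand, 26150001 gave -0.14 with DESeq2 size factors, -0.51 with library totals, -0.069 by DESeq2, -0.24 with distinct positions and -0.13 to 1.25 with 1 library left out. 26200001 gave -0.064 with distinct positions, and 26120001 gave -0.16 with library totals and -0.16 to 7.48 with 1 library left out. On the minus strand, 26050001 gave 0.29 with no filter, 0.022 with the replicate block and -0.32 to 1.76 with 1 library left out. 26030001 gave -0.15 with DESeq2 size factors, -0.50 with library totals, -0.16 by DESeq2, -0.46 with distinct positions and -0.14 to 8.38 with 1 library left out. 27830001 gave -0.34 with library totals and -0.30 to 2.16 with 1 library left out, 26190001 gave -0.31 with library totals and -0.22 with distinct positions, and 26020001 gave -1.03 to 0.24 with 1 library left out. In the fits that gave 8.38 for 26030001 and 7.48 for 26120001, the library left out held every control event of the window. Fold changes there depend on the prior count. The cause of the sign changes was not tested. Joining below 50 or 200 nt gave 44 and 43 blocks of 10 or more positions, with median widths of 192 and 614 nt. Control depth limits each value, since 3 events are 21.8 to 101 EPM.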

Other observations

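The HFE interval that was left out of the cluster held 37, 12 and 8 plus-strand events in QKI-5 replicates 1, 2 and 3 and 1, 0 and 0 in control replicates 1, 2 and 3, at 50 positions. With it put back, the cluster's difference in mean log2 EPM was -0.34 (two-sided exact permutation p = 0.1).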
